A study of Mus musculus with 32 samples.

Results

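Tumour necrosis factor (TNF) and the NF-κB pathway were followed through 10 genes in 8 wild-type mice 1 day after a thrombin stroke: Tnf, the receptor genes Tnfrsf1a and Tnfrsf1b, the inhibitor and target genes Tnfaip3, Tnfaip2, Nfkbia and Nfkbiz, and the subunit genes Nfkb1, Nfkb2 and Relb. They were chosen by name, with earlier results of these data known, as the cytokine, its receptors, NF-κB subunits and genes that TNF switches on. All 10 were found by row name among the 33280 genes of each count table and passed the filter on low counts. Stroke was induced by injecting thrombin into the middle cerebral artery of C57BL/6JCrl wild-type mice of both sexes, and the hemisphere with the clot (ipsilateral) was compared with the other (contralateral). Repopulated mice had received BLZ945, an oral inhibitor of the CSF1 receptor on which microglia and border macrophages depend, at 200 mg per kg for 7 days, 8 weeks before the stroke, whereas CTL mice had received the vehicle. From each of 4 CTL mice (A2, A3, A4, B1) and 4 BLZ945 mice (C2, C3, C4, D1), RNA was sequenced from a slice of each hemisphere (16 tissue libraries) and from subdural macrophages of the brain borders (sdCAMs, the perivascular and leptomeningeal ones), sorted as CD206+ cells that were CD45+ and CD11b+ and lacked Ly6G, CD11c and Ly6C, from each hemisphere after removal of the choroid plexus (16 libraries, of which 14 were used). The model holds limits for these genes: 8 weeks after BLZ945 the microglial niche is occupied again, so the mice are repopulated rather than depleted, and no mouse without stroke was measured here, so the contralateral hemisphere of the same animal is the only reference.

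TNF is made as a membrane protein that the protease ADAM17 cuts free. It binds TNFR1, encoded by Tnfrsf1a and present on most cells, and TNFR2, encoded by Tnfrsf1b and found mainly on immune and endothelial cells. Receptor binding leads to degradation of IκBα (Nfkbia), which releases NF-κB dimers into the nucleus, where they switch on inflammatory genes together with their own brakes, among them Nfkbia and A20 (Tnfaip3). In brain ischaemia, microglia and macrophages are known sources of the cytokine.

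RefSeq windows of the 250 bases before the transcription start were available for 7 of the 10 genes on build GRCm38.p6 (none was found for Nfkbiz, Nfkb1 and Relb). The κB consensus, a motif of 10 letters read on both strands, was present in 4 of these 7 genes (Tnfaip3, Tnfaip2, Nfkbia and Nfkb2), counting every start site of a gene. Across the table, 8.23% of 27025 genes and 7.25% of 32851 windows held it. Tnf, Tnfrsf1a and Tnfrsf1b had no match in this window, which says only that these letters do not occur there. The windows of 4 genes are shown because they stand for the roles the results turn on, a receptor, a subunit and both classical inhibitors; each is read 5′ to 3′ towards the start site, with the κB matches in capitals. The Tnfrsf1a window lies at chr6:125349473-125349722 on the plus strand, that of Nfkb2 (first start site) at chr19:46304487-46304736 on the plus strand, that of Nfkbia at chr12:55492648-55492897 on the minus strand and that of Tnfaip3 (first start site) at chr10:19015411-19015660 on the minus strand.
Tnfrsf1a: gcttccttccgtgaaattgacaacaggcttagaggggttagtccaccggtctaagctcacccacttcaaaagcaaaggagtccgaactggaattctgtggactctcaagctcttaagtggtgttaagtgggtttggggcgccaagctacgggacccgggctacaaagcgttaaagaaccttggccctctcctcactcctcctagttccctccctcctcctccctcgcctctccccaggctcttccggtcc
Nfkb2: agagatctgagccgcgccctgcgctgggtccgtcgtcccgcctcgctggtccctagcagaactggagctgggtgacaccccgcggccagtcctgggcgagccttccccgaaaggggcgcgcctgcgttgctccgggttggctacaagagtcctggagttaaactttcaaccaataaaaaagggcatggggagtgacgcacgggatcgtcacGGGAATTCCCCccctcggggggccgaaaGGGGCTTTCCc
Nfkbia: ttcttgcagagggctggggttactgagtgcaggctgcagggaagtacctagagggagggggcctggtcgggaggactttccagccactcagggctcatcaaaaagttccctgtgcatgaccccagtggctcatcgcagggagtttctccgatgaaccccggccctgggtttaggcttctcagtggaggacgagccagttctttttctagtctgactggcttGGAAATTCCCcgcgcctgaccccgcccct
Tnfaip3: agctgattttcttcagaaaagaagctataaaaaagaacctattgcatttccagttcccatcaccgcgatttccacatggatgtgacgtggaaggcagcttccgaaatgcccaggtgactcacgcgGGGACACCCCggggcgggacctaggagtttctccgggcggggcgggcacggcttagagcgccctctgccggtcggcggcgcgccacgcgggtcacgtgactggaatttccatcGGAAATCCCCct
The last match ended 19 bases before the start of Nfkbia, 2 bases before that of Tnfaip3 and 1 base before that of Nfkb2, where 3 match positions formed 2 separate stretches.

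The libraries held 9288717 to 12781505 counts on genes in tissue and 7397393 to 11081409 in the sdCAMs used, so that 3 counts correspond to 0.234 to 0.321 counts per 1000000 (CPM, on the TMM-scaled library size) in tissue and 0.253 to 0.389 in sdCAMs. The ipsilateral sdCAM libraries of A3 and C2, described by the submitters as degraded, held 54055 and 55155 counts and were left out. For the tissue of mouse A3, the letter in the column name gave the opposite hemisphere from the sample title. Library 19 was taken as ipsilateral and library 20 as contralateral, as in the titles, and results with the letters exchanged stand beside the counts. Sample labels put all libraries in 1 batch. Neuron markers summed to 5902 to 9112 CPM (5 genes) and astrocyte markers to 987 to 2018 CPM (5 genes) in tissue. Border macrophage markers (Mrc1, Pf4, Lyve1, Cd163, Folr2, F13a1) summed to 1263 to 8115 CPM in sdCAMs against 6.46 to 19.6 in tissue. Microglial markers (P2ry12, Tmem119, Sall1, Siglech, Gpr34) summed to 3107 to 14900 CPM in sdCAMs. Their sum exceeded that of the border macrophage markers in every sdCAM library used except ipsilateral B1 (6472 against 7049 CPM) and D1 (4715 against 8115 CPM). The sdCAM values are therefore those of the sorted libraries, and the part of microglial RNA in them was not tested. No marker of either list was at 0 in all libraries.

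In tissue, the ligand and both receptor genes were higher on the side of the stroke, and Tnfrsf1a was 2.39 times as high in CTL mice and 2.91 times in BLZ945 mice. Nfkbiz and Nfkb2 rose as well, whereas the classical brakes Nfkbia and Tnfaip3 and the subunit Nfkb1 did not pass the test. By edgeR's quasi-likelihood test with Benjamini-Hochberg adjustment over 18968 genes (called at an adjusted p under 0.05, with no fold change threshold), 1 of the 10 genes was called higher ipsilaterally in CTL mice, 2 in BLZ945 mice and 5 in the average of both treatments. The test did not pair the hemispheres of a mouse, and more genes were called with the mouse as a replicate block, as given in the last section. Of all genes tested, 0.485% were called up in CTL mice, 1.26% in BLZ945 mice and 2.53% in the average, and 0.00527%, 0.1% and 0.517% were called down, none of them a gene of this group. The median log2 fold change of the 10 genes was 0.70 in CTL mice, 0.95 in BLZ945 mice and 0.81 in the average, beside a median over all genes of -0.01 in CTL mice. When A3 was read by its column letters, 0 of the 10 genes passed in each of these 3 comparisons, and the log2 fold change of Tnfrsf1a in CTL mice was 0.57. A3 is a CTL mouse, and the BLZ945 log2 fold changes of Tnfrsf1a and Nfkbiz stayed at 1.54 and 1.16 (edgeR, adjusted p = 0.0879 and 0.0942).

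**Figure D1:**
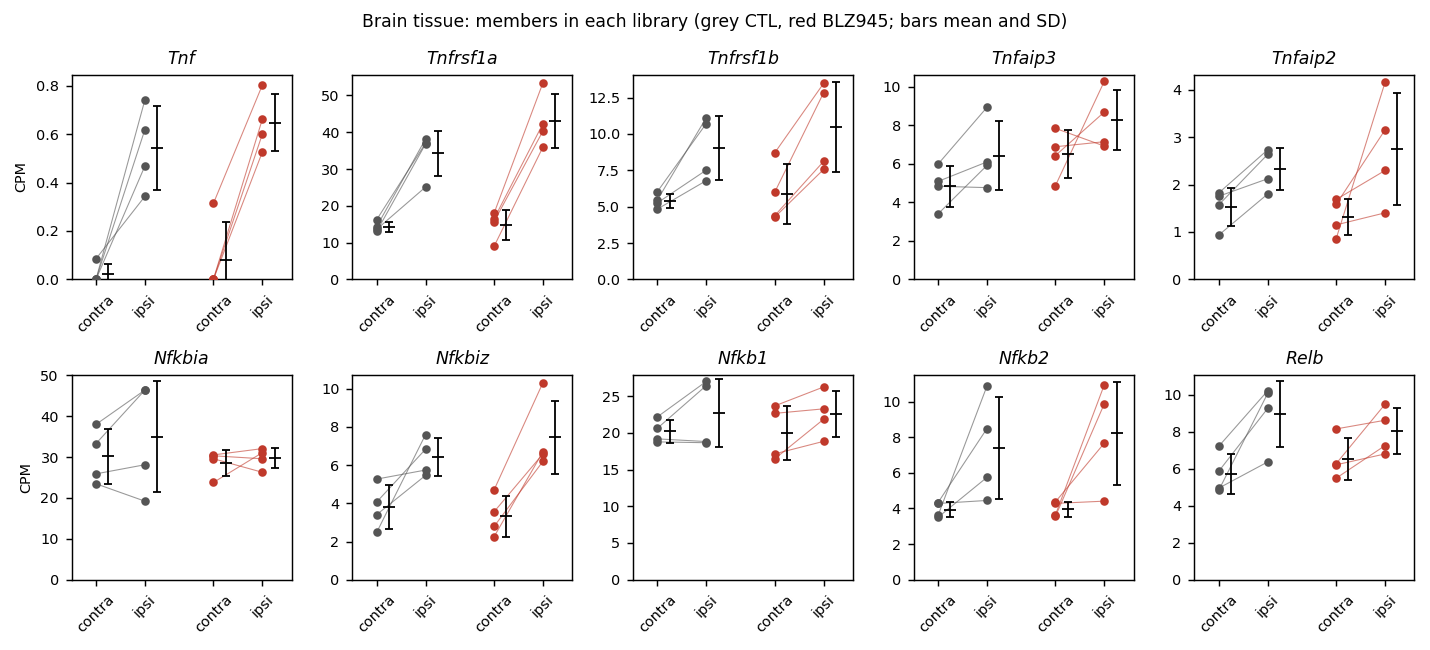
CPM (linear axis from 0) of the 10 genes in each tissue library, with grey points for CTL and red points for BLZ945 mice, lines joining the hemispheres of 1 mouse and black bars for the mean and SD (n = 4). Every mouse lies higher ipsilaterally for Tnf, Tnfrsf1a, Tnfrsf1b, Tnfaip2, Nfkbiz, Nfkb2 and Relb. The hemispheres overlap in both treatments for Tnfaip3, Tnfaip2, Nfkbia, Nfkb1 and Relb, and in BLZ945 mice for Tnfrsf1b.

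Tnf itself was close to the limit of detection in tissue. In CTL mice it had 0, 1, 0 and 0 counts contralaterally (A2, A3, A4, B1) and 6, 4, 7 and 9 ipsilaterally. In BLZ945 mice it had 0, 3, 0 and 0 contralaterally (C2, C3, C4, D1) and 7, 8, 5 and 6 ipsilaterally. All 8 ipsilateral values stood above all contralateral values of their treatment, and 6 of the 8 contralateral libraries had no read. Pooled over mice and scaled by depth, the ipsilateral level was 24.4 times the contralateral one in CTL mice (26 against 1 count, 95% interval 4.002 to 999) and 8.72 times in BLZ945 mice (26 against 3 counts, 2.67 to 45.01); these intervals cover counting error only. By edgeR, Tnf was called in the average of both treatments (adjusted p = 0.00347) but not in CTL (adjusted p = 0.0869) or BLZ945 mice alone (adjusted p = 0.107). DESeq2 called it in CTL mice (adjusted p = 0.0349). Without C3, edgeR called it in CTL (adjusted p = 0.0419) and in BLZ945 mice (log2 fold change 5.73, adjusted p = 0.0288). With the column letters of A3, the edgeR call in the average was lost (log2 fold change 2.61).

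Tnfrsf1a, the gene of the receptor with a death domain, had the smallest adjusted p of the 10 genes in tissue. Contralateral levels in CTL mice were 14.3, 16.2, 13.6 and 13.04 CPM (A2, A3, A4, B1), against 38.2, 37.0, 25.1 and 36.8 CPM ipsilaterally. The BLZ945 mice had 18, 8.99, 16.5 and 15.7 CPM (C2, C3, C4, D1), against 53.5, 35.99, 42.4 and 40.4 CPM. The hemispheres did not overlap in either treatment, C2 was the highest ipsilateral library, and A4 the lowest. The log2 fold change was 1.26 ± 0.18 (SE) in CTL mice (edgeR, adjusted p = 0.00240) and 1.54 ± 0.18 in BLZ945 mice (edgeR, adjusted p = 2.04e-04). Without mouse B1 the CTL response was 1.18 and was no longer called.

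Tnfrsf1b, the gene of the receptor that signals without a death domain, also differed between hemispheres. In CTL mice it was 4.84, 6.03, 5.26 and 5.46 CPM contralaterally and 6.79, 10.7, 7.52 and 11.1 CPM ipsilaterally, without overlap. The BLZ945 mice had 6.0, 4.39, 4.28 and 8.71 CPM contralaterally and 12.8, 8.12, 7.57 and 13.5 CPM ipsilaterally, where D1 contralateral lay above C3 and C4 ipsilateral although each mouse was higher on the side of its stroke. In the average of both treatments it rose by 0.79 ± 0.18 on the log2 scale (edgeR, adjusted p = 0.0184). In single treatments edgeR gave adjusted p = 0.475 (CTL) and 0.138 (BLZ945), and with the mouse as a replicate block 0.0238 and 0.00327, both called. With this block the share of all genes called up was 1.14% (CTL), 2.69% (BLZ945) and 4.06% (average). Without A3, B1 or C2 the call in the average was lost, at log2 fold changes of 0.78, 0.74 and 0.75.

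Among the inhibitors, Nfkbia (IκBα) had the highest level per length of exon and showed no difference past the test. It was 23.5, 37.99, 25.9 and 33.3 CPM contralaterally and 19.2, 46.4, 28.1 and 46.4 CPM ipsilaterally in CTL mice. The BLZ945 mice had 23.8, 30.3, 29.6 and 30.5 CPM contralaterally and 31.1, 29.6, 26.3 and 32.1 CPM ipsilaterally. In 5 of 8 mice it was higher ipsilaterally, and the log2 fold change in the average was 0.14 with a 95% interval from -0.19 to 0.47. Tnfaip3, whose product A20 edits ubiquitin on the receptor complex, ranged from 3.399 to 7.84 CPM contralaterally and from 4.76 to 10.3 CPM ipsilaterally over both treatments. It was higher ipsilaterally in 6 of 8 mice, with a log2 fold change of 0.38 ± 0.16 in the average (edgeR, adjusted p = 0.266).

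Nfkbiz encodes IκBζ, a nuclear cofactor that permits transcription of a second wave of NF-κB genes, and it rose where Nfkbia did not pass the test. In CTL mice it was 3.41, 5.27, 2.48 and 4.07 CPM contralaterally and 5.47, 5.74, 7.61 and 6.84 CPM ipsilaterally. BLZ945 mice showed 2.25, 4.70, 2.79 and 3.56 CPM contralaterally and 6.71, 10.3, 6.20 and 6.59 CPM ipsilaterally. The hemispheres did not overlap in either treatment, and C3 was the highest ipsilateral library. In the average it rose by 0.95 ± 0.18 (edgeR, adjusted p = 0.00597), with log2 fold changes of 0.75 ± 0.26 in CTL mice (edgeR, adjusted p = 0.491) and 1.16 ± 0.26 in BLZ945 mice (edgeR, adjusted p = 0.0321), and the call in BLZ945 mice was lost without A2, B1, C2, C4 or D1 (log2 fold changes of 1.16, 1.16, 1.07, 1.17 and 1.26).

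Of the subunit genes, Nfkb2 (the p100 precursor of the non-canonical pathway) rose and Nfkb1 (the p105 precursor of the canonical pathway) did not pass the test. Nfkb2 was 4.28, 4.33, 3.51 and 3.61 CPM contralaterally and 4.45, 8.49, 5.75 and 10.9 CPM ipsilaterally in CTL mice. BLZ945 mice showed 3.64, 4.29, 4.37 and 3.56 CPM contralaterally and 10.96, 4.41, 7.67 and 9.89 CPM ipsilaterally. The contralateral values were tightly grouped, all 8 ipsilateral values exceeded the contralateral values of their treatment, and A2 and C3 barely did so, at 1.04 and 1.03 times their own contralateral side. In the average the change was 0.98 ± 0.20 on the log2 scale (edgeR, adjusted p = 0.00920), and a replicate block called it in BLZ945 mice (adjusted p = 0.0287). Without B1 or C2 the call in the average was lost, at log2 fold changes of 0.84 and 0.88.

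Relb, the partner of the p52 product of Nfkb2, was 4.84 to 7.21 CPM contralaterally and 6.37 to 10.2 CPM ipsilaterally in CTL mice, and 5.49 to 8.15 CPM contralaterally and 6.80 to 9.49 CPM ipsilaterally in BLZ945 mice. It was higher ipsilaterally in 8 of 8 mice, with a log2 fold change of 0.48 ± 0.14 in the average (edgeR, adjusted p = 0.0715, and 0.0150 with a replicate block). Nfkb1 lay between 16.5 and 23.7 CPM contralaterally and between 18.7 and 27.01 CPM ipsilaterally, with 6 of 8 mice higher ipsilaterally and a log2 fold change of 0.17 ± 0.11 (edgeR, adjusted p = 0.533). Tnfaip2, a target gene named for its induction by TNF in endothelial cells, was detected in every library, at 0.857 to 1.82 CPM contralaterally and 1.40 to 4.16 CPM ipsilaterally, with C2 the highest. It was higher ipsilaterally in 8 of 8 mice, with a log2 fold change of 0.83 ± 0.24 in the average (edgeR, adjusted p = 0.0714, and 0.0381 with a replicate block).

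Every ipsilateral library stood above every contralateral one for 5 of the 10 genes in CTL mice (Tnf, Tnfrsf1a, Tnfrsf1b, Nfkbiz and Nfkb2) and for 4 in BLZ945 mice (the same without Tnfrsf1b). Over all genes tested, this held for 2.45% in CTL and 4.2% in BLZ945 mice. In bulk RNA, fewer cells of a type and less RNA per cell cannot be told apart, and some marker lists moved with the hemisphere in tissue. Astrocyte markers (5 of 5 genes tested) summed to 987 to 1364 CPM contralaterally and 1447 to 1771 CPM ipsilaterally in CTL mice, and to 1154 to 1330 and 1647 to 2018 CPM in BLZ945 mice. Endothelial markers (5 of 5) summed to 164 to 220 and 190 to 265 CPM in CTL mice and to 162 to 209 and 193 to 283 CPM in BLZ945 mice, and border macrophage markers (6 of 6) to 7.68 to 10.9 and 9.39 to 13.3 CPM in CTL mice and to 6.46 to 11.4 and 10.7 to 19.6 CPM in BLZ945 mice. Microglial markers (5 of 5) lay between 91.5 and 112 CPM contralaterally and between 77.0 and 99.0 CPM ipsilaterally in CTL mice and between 91.9 and 108 and between 76.2 and 92.4 CPM in BLZ945 mice, neutrophil markers between 4.71 and 7.63 and between 5.00 and 9.64 CPM (4 of 7 genes tested, with Ly6g and Cxcr2 at 0 in every contralateral library), and T and NK cell markers did not exceed 0.781 CPM. The part of these lists in the responses was not tested.

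Per kilobase of exon (CPM divided by the union of exons in GENCODE M21, which may differ from the annotation used for counting), the levels can be set side by side. In contralateral CTL tissue, Nfkbia led at 18.7 ± 4.15 CPM per kb (SD, n = 4), followed by Tnfrsf1a at 5.52 ± 0.536. Nfkb1 (1.67 ± 0.128), Relb (1.47 ± 0.283) and Tnfrsf1b (1.41 ± 0.130) followed without differing from their neighbours beyond 1 SD, as did Nfkb2 (0.858 ± 0.0950), Nfkbiz (0.758 ± 0.234) and Tnfaip3 (0.668 ± 0.148) further down. Tnfaip2 (0.305 ± 0.0812) and Tnf (0.0130 ± 0.0259) were the lowest. In contralateral CTL sdCAMs, Nfkbia (329 ± 105) and Tnfrsf1a (79.5 ± 19.9) again led, with Tnfrsf1b (71.2 ± 26.7) level with Tnfrsf1a, and Tnf came next (22.04 ± 19.1). From there to Tnfaip2 (3.57 ± 2.05), each gene lay within 1 SD of the next. The cytokine thus stood last in tissue and after Nfkbia and the receptors in sorted cells, an order within separately normalised tables.

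In sdCAMs, both receptor genes were called higher ipsilaterally in the average of both treatments. Tnf, Tnfaip3 and Nfkbiz varied more between mice than between hemispheres. Of the 10 genes, 0 were called in CTL mice, 1 (Tnfrsf1a) in BLZ945 mice and 2 (Tnfrsf1a and Tnfrsf1b) in the average, all upwards, by edgeR over 18297 genes. In CTL mice, 2 of the 10 genes had an unadjusted p under 0.05, as did 3346 of all 18297 genes, and DESeq2 also called 0. Of all genes, 0.426% were called up in CTL mice, 1.2% in BLZ945 mice and 4.98% in the average, and 2.36%, 4.41% and 11.2% were called down. The median log2 fold change of the 10 genes was 0.62 in CTL mice, 0.05 in BLZ945 mice and 0.41 in the average, against -0.11, -0.15 and -0.16 over all genes. With all 16 libraries, 0 of the 10 genes were called in BLZ945 mice and in the average.

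**Figure D2:**
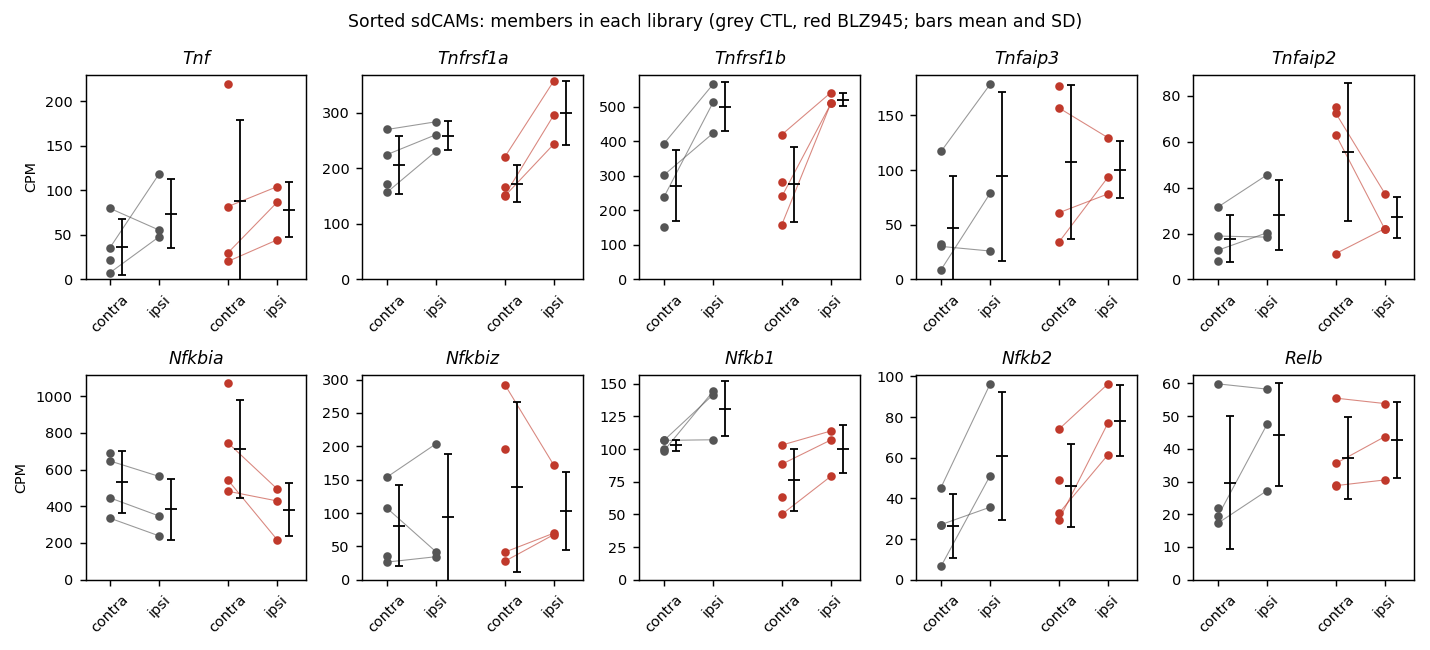
CPM (linear axis from 0) of the 10 genes in each sdCAM library used, with grey points for CTL and red points for BLZ945 mice, lines joining the hemispheres of 1 mouse and black bars for the mean and SD (contralateral n = 4, ipsilateral n = 3). Tnfrsf1a, Tnfrsf1b and Nfkb2 are higher ipsilaterally in each of the 6 mice with both hemispheres, Nfkbia is lower ipsilaterally in all 6, and Tnf, Tnfaip3 and Nfkbiz spread widely contralaterally.

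Tnfrsf1a in sdCAMs was 225, 172, 157 and 270 CPM contralaterally (A2, A3, A4, B1) and 261, 231 and 284 CPM ipsilaterally (A2, A4, B1) in CTL mice. BLZ945 mice had 166, 150, 152 and 221 CPM contralaterally (C2, C3, C4, D1) and 244, 296 and 358 CPM ipsilaterally (C3, C4, D1), without overlap. The log2 fold change was 0.33 ± 0.22 in CTL mice (edgeR, adjusted p = 0.427) and 0.80 ± 0.22 in BLZ945 mice (edgeR, adjusted p = 0.0439), and these responses did not differ past the test (interaction 0.47, 95% interval -0.19 to 1.13). The BLZ945 call was lost without A2, C2, C3, C4 or D1, at log2 fold changes from 0.75 to 0.87, and with DESeq2 size factors in edgeR (0.72). The call in the average, 0.56 ± 0.15 (edgeR, adjusted p = 0.0223), was lost without A4 (0.55) or C4 (0.54).

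Tnfrsf1b separated the hemispheres in both treatments. It was 303, 152, 239 and 394 CPM contralaterally and 424, 513 and 565 CPM ipsilaterally in CTL mice. Repopulated (BLZ945) mice had 283, 240, 159 and 420 CPM contralaterally and 510, 511 and 541 CPM ipsilaterally. The ipsilateral libraries of BLZ945 mice were nearly equal while their contralateral ones were spread over a wide range. On the log2 scale the difference was 0.88 ± 0.31 in CTL mice (edgeR, adjusted p = 0.141), 0.92 ± 0.31 in BLZ945 mice (edgeR, adjusted p = 0.0948, and 0.0442 with a replicate block, in which A3 and C2 have no partner) and 0.90 ± 0.22 in the average (edgeR, adjusted p = 0.0116). With the block, 0.126% of all genes were called up in CTL mice, 1.46% in BLZ945 mice and 3.5% in the average. Every ipsilateral library exceeded every contralateral one for 2 of the 10 genes in CTL mice (Tnfrsf1b and, narrowly, Nfkb1) and for 2 in BLZ945 mice (Tnfrsf1a and Tnfrsf1b), against 5.7% and 7.44% of all genes.

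Tnf in sdCAMs was well above the floor of 3 counts and unequal between mice. In CTL mice it was 79.7, 21.5, 7.60 and 35.7 CPM contralaterally and 55.3, 47.9 and 118 CPM ipsilaterally. Repopulated (BLZ945) mice had 219, 29.8, 20.2 and 81.7 CPM contralaterally and 86.4, 44.3 and 104 CPM ipsilaterally. The highest value, contralateral C2, has no ipsilateral partner, and within mice Tnf was higher ipsilaterally in 5 of 6, at 6.30 times in A4, 3.32 in B1, 2.90 in C3, 2.20 in C4, 1.27 in D1 and 0.694 in A2. The log2 fold change in BLZ945 mice was -0.16 ± 0.76 without pairing (edgeR, adjusted p = 0.947) and turned to 1.00 with a replicate block (adjusted p = 0.303) and to 0.83 without C2. In the average it was 0.44 ± 0.53 (edgeR, adjusted p = 0.646) and 1.15 with the block (adjusted p = 0.0679).

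Nfkbia was lower ipsilaterally in all 6 mice with both libraries, the opposite direction from the receptors. It was 335, 693, 446 and 647 CPM contralaterally and 239, 347 and 563 CPM ipsilaterally in CTL mice. BLZ945 mice had 1073, 482, 543 and 746 CPM contralaterally and 429, 219 and 495 CPM ipsilaterally. The groups overlapped in both treatments, and the log2 fold change was -0.68 ± 0.26 in the average (edgeR, adjusted p = 0.0860, and 0.0686 with a replicate block); DESeq2 called it at -0.77 (adjusted p = 0.0181). Tnfaip3 ranged from 8.78 to 177 CPM contralaterally and from 25.96 to 178 CPM ipsilaterally, and Nfkbiz from 26.4 to 292 and from 34.5 to 204 CPM. For both, the spread between mice exceeded the difference between hemispheres, with log2 fold changes in the average of 0.46 ± 0.52 and -0.11 ± 0.58.

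Nfkb2 was 6.58, 26.9, 27.1 and 45.3 CPM contralaterally and 51.2, 35.7 and 96.2 CPM ipsilaterally in CTL mice. Repopulated (BLZ945) mice had 49.1, 32.7, 29.4 and 74.0 CPM contralaterally and 61.4, 77.1 and 96.3 CPM ipsilaterally. It was higher ipsilaterally in 6 of 6 mice, from 1.30 times in D1 to 7.77 times in A2, where the contralateral value was the lowest of the group. In the average the difference was 0.98 ± 0.35 on the log2 scale (edgeR, adjusted p = 0.0697, and 0.0384 with a replicate block). Nfkb1 was 98.7 to 107 CPM contralaterally and 107 to 144 CPM ipsilaterally in CTL mice and 50.1 to 103 and 79.2 to 114 CPM in BLZ945 mice, higher ipsilaterally in 6 of 6 mice (log2 fold change 0.37 ± 0.17 in the average, edgeR, adjusted p = 0.145). Relb was 17.3 to 59.9 CPM contralaterally and 27.2 to 58.3 CPM ipsilaterally over both treatments, higher in 4 of 6 mice (0.39 ± 0.31, edgeR, adjusted p = 0.429).

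**Figure D3:**
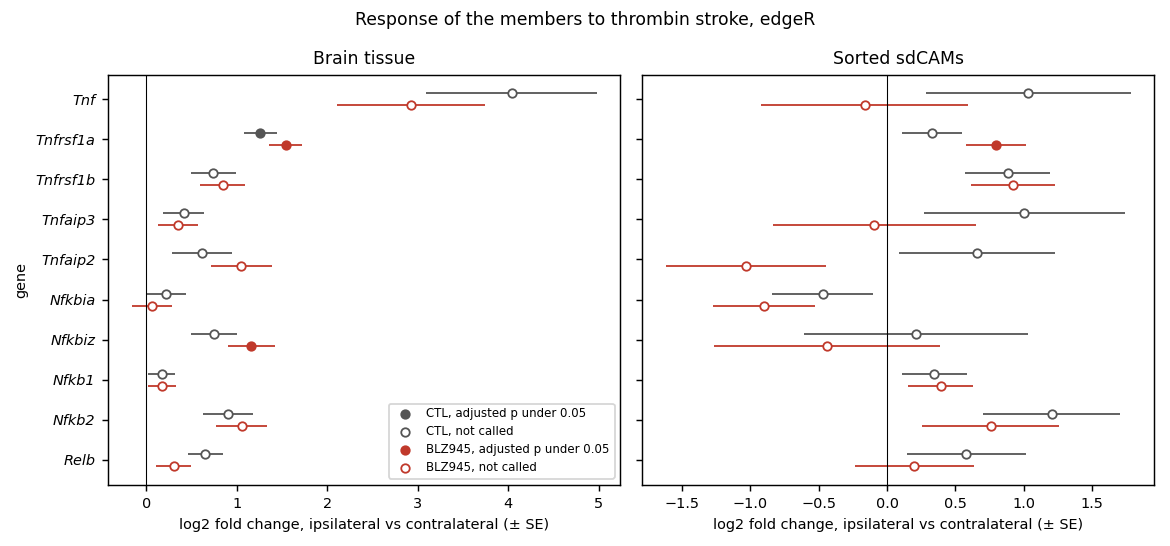
Log2 fold change, ipsilateral against contralateral, with its SE, of the 10 genes in tissue (left) and sdCAMs (right) for CTL (grey) and BLZ945 mice (red), with filled points where edgeR's adjusted p was under 0.05. Tissue points lie right of 0 for all 10 genes; in sdCAMs the filled point is Tnfrsf1a in BLZ945 mice at 0.80, and Nfkbia lies left of 0 in both treatments.

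In sdCAMs, several members were highest in the same libraries, and the same share over all genes was not computed. Of the 10 genes, B1 held the highest value for 7 among contralateral and for 9 among ipsilateral CTL sdCAM libraries, and D1 for 5 and for 8 among those of BLZ945 mice. Contralateral C2 held it for Tnf, Tnfaip3, Tnfaip2 and Nfkbia, 4 of 10. Nfkb1 was an exception, highest in A2 and A4 among CTL and in C3 among BLZ945 libraries. In tissue this ranking was more even, with at most 4 of 10 genes in any 1 library except contralateral A3, with 7. In sdCAMs, B1 and D1 also had the highest border macrophage marker sums of their groups. Contralaterally and ipsilaterally, these were 4936 and 7049 CPM in B1 and 3458 and 8115 CPM in D1. The microglial marker sums of B1 were the lowest of its groups, at 7217 and 6472 CPM. Those of D1 were 4045 CPM contralaterally, above C4 (3107 CPM), and 4715 CPM ipsilaterally, the lowest of its group. The part of these sums in the ranking was not tested. The counts of highest values describe the libraries, and the genes are not independent of each other.

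Markers of other cell types differed between the sdCAM libraries as well. Endothelial markers (5 of 5 genes) summed to 478 to 1246 CPM contralaterally and 52.8 to 102 CPM ipsilaterally in CTL mice, and to 704 to 1055 and 37.1 to 50.9 CPM in BLZ945 mice. Oligodendrocyte markers (4 of 4) summed to 1719 to 4885 and 191 to 455 CPM in CTL mice and to 407 to 2630 and 78.2 to 150 CPM in BLZ945 mice. Both lists were thus lower in each ipsilateral group without overlap, and no gene of either was at 0 throughout. Border macrophage markers (6 of 6) moved the other way, from 1411 to 4936 CPM contralaterally to 3905 to 7049 CPM ipsilaterally in CTL mice and from 1263 to 3458 to 4484 to 8115 CPM in BLZ945 mice. Microglial markers (5 of 5) lay at 7217 to 10090 and 6472 to 14900 CPM in CTL mice and at 3107 to 6437 and 4715 to 10290 CPM in BLZ945 mice. Astrocyte markers lay at 543 to 1360 and 314 to 563 CPM in CTL mice and at 241 to 1020 and 167 to 336 CPM in BLZ945 mice, and T and NK cell markers between 49.2 and 235 CPM in all groups. Monocyte markers (5 of 5) lay at 93.1 to 160 CPM contralaterally and 242 to 344 CPM ipsilaterally in CTL mice, without overlap, and at 167 to 853 and 201 to 377 CPM in BLZ945 mice. Red blood cell markers (3 of 5 genes tested) lay at 123 to 962 and 25.7 to 84.4 CPM in CTL mice, without overlap, and at 73.1 to 1159 and 7.10 to 150 CPM in BLZ945 mice. The part of these differences in the sdCAM values of the 10 genes was not tested.

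**Figure D4:**
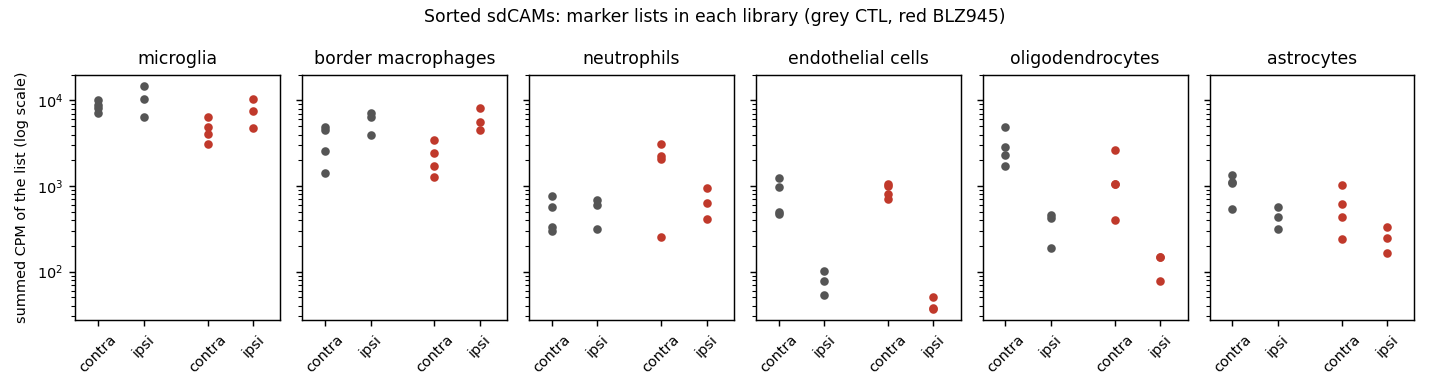
Summed CPM (log axis) of 6 marker lists in each sdCAM library used, grey for CTL and red for BLZ945 mice. Endothelial markers fall from 478 to 1246 CPM contralaterally to 52.8 to 102 CPM ipsilaterally in CTL mice, and 3 of the 4 contralateral BLZ945 libraries stand above all others in neutrophil markers.

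Neutrophil markers stood out beside Tnfaip2. They summed to 2062, 253, 3095 and 2238 CPM in contralateral BLZ945 libraries (C2, C3, C4, D1), against 302 to 771 CPM in contralateral CTL libraries, 315 to 690 CPM in ipsilateral CTL and 409 to 944 CPM in ipsilateral BLZ945 libraries, with none of the 7 genes at 0 throughout. Tnfaip2 was 75.2, 11.3, 72.5 and 63.1 CPM in the same 4 libraries, against 18.9, 8.03, 12.7 and 31.6 CPM in contralateral CTL libraries. The ipsilateral values were 18.4, 20.4 and 45.6 CPM in CTL and 22.2, 37.4 and 21.8 CPM in BLZ945 mice. Tnfaip2 and the neutrophil markers were both high in C2, C4 and D1 and both low in C3, in cells from a gate that required no Ly6G and no Ly6C on the surface; the part of the neutrophil markers in the Tnfaip2 values was not tested. Monocyte markers were also highest in C2 and D1, at 853 and 774 CPM, against 167 CPM in C3 and 379 CPM in C4.

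The BLZ945 and CTL mice were then compared with each other, to ask whether renewal of the microglia and macrophages changed these genes. None of the 10 genes passed in the interaction or in either hemisphere, in tissue or in sdCAMs, by edgeR or DESeq2, and 0% of all genes tested were called by edgeR in these 6 comparisons. At an unadjusted p under 0.05, edgeR gave 0 of the 10 genes in 5 of them and 1, Tnfaip2, between contralateral sdCAMs, where 1133 of all 18297 genes had such a p. Its log2 difference, BLZ945 minus CTL, was 1.64 ± 0.54 there (edgeR, adjusted p = 0.759). In the interaction, values ran from -1.11 (Tnf, 95% interval -3.78 to 1.55) to 0.44 (Tnfaip2, -0.56 to 1.43) in tissue and from -1.69 (Tnfaip2, -3.43 to 0.04) to 0.47 (Tnfrsf1a) in sdCAMs. The sign for Tnf in tissue turned without C3 (1.68) and with the column letters of A3 (0.63). Ipsilaterally, BLZ945 minus CTL ranged from -0.23 (Nfkbia) to 0.36 (Tnfaip3) in tissue and from -0.39 (Nfkb1) to 0.36 (Nfkb2) in sdCAMs. Contralaterally it ranged from -0.20 (Nfkbiz) to 1.36 (Tnf, from 3 counts against 1) in tissue and from -0.43 (Nfkb1) to 1.64 (Tnfaip2) in sdCAMs. The intervals were wide for Tnf, and for Tnfrsf1a in tissue the interaction lay between -0.26 and 0.82.

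Beyond the 10 genes, 60 further genes of the pathway were examined in lists by role. In tissue, 14 of these 60 were called up and 0 down in the average of both treatments (2.53% and 0.517% of all genes tested), with a median log2 fold change of 0.29 against -0.01 over all genes. Counting members too, the TNF-induced list had 10 of 20 genes called up (median 1.68), the ligands and shedding list 3 of 5 (1.13; Tnf, Lta and Rhbdf2), the IκB proteins 2 of 6 (0.52; Bcl3 and Nfkbiz), the receptor complex 2 of 16 (0.20; Tnfrsf1a and Tnfrsf1b), the Rel subunits 1 of 5 (0.24; Nfkb2), the feedback inhibitors 1 of 10 (0.08; Zfp36) and the kinases upstream of NF-κB 0 of 8 (0.06). Lta and Rhbdf2, and in sdCAMs Ripk1, Rel, Tnfaip8, Nos2 and Sele, are named here because they make up such small counts, after their values were seen. Within single treatments, 3 of the 60 were called up in CTL mice, where 0.485% of all genes were, and 10 in BLZ945 mice, where 1.26% were.

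**Figure D5:**
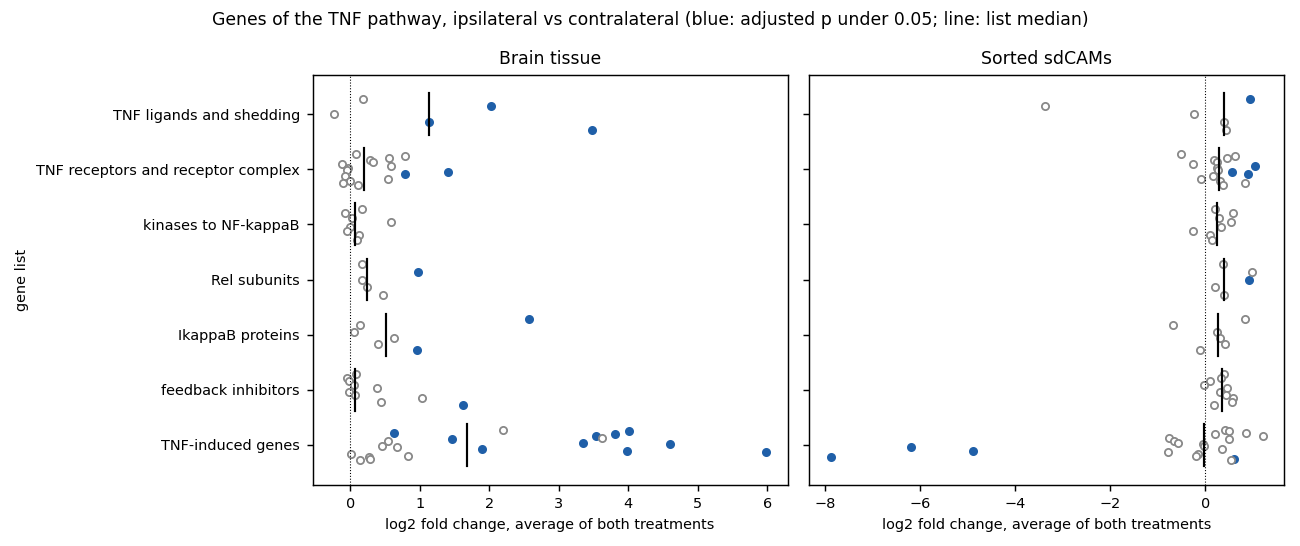
Log2 fold change, ipsilateral against contralateral in the average of both treatments, of every tested gene in 7 lists of the pathway in tissue (left) and sdCAMs (right), blue where edgeR's adjusted p was under 0.05, with a line at the list median. In tissue 10 of 20 TNF-induced genes are blue (median 1.68), against 0 of 8 kinases, and in sdCAMs 3 TNF-induced genes lie far left of 0.

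Bcl3, an atypical IκB protein that works in the nucleus with p50 and p52, rose from 0.994 ± 0.179 to 4.27 ± 1.23 CPM in CTL mice (SD, n = 4) and from 0.781 ± 0.274 to 6.41 ± 2.32 CPM in BLZ945 mice (log2 fold changes 2.10 and 3.03, edgeR, adjusted p = 0.00311 and 8.0e-05). Zfp36, whose product tristetraprolin destabilises the Tnf mRNA, was called in BLZ945 mice, from 4.97 ± 1.005 to 17.7 ± 8.31 CPM (edgeR, adjusted p = 0.00722). In CTL mice, Zfp36 was 5.50 ± 1.204 and 14.8 ± 6.41 CPM (edgeR, adjusted p = 0.0749). Among TNF-induced genes, the chemokine gene Ccl2 rose from 0.377 ± 0.383 to 3.61 ± 1.79 CPM in CTL mice and from 0.203 ± 0.156 to 5.88 ± 4.22 CPM in BLZ945 mice (edgeR, adjusted p = 0.0399 and 0.00208). Cxcl10, a chemokine gene of interferon and NF-κB, rose from 0.152 ± 0.187 to 2.26 ± 0.630 CPM and from 0.512 ± 0.386 to 5.10 ± 1.496 CPM (edgeR, adjusted p = 0.00426 and 0.00158). Cxcl1, Il1b and Sele, a neutrophil chemokine, interleukin-1β and the endothelial adhesion molecule E-selectin, were called in BLZ945 mice, with 62, 103 and 86 summed ipsilateral counts against 1, 5 and 1 contralaterally. Their summed counts in CTL mice were 47, 73 and 11 against 9, 12 and 2, not called. In the interaction of treatment and hemisphere, 0 of the 20 TNF-induced genes were called in tissue.

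In sdCAMs, 4 of the 60 genes were called up and 3 down in the average (4.98% and 11.2% of all genes tested), with a median log2 fold change of 0.28 against -0.16 over all genes. Adam17, the protease that sheds TNF and both its receptors, rose in BLZ945 mice from 169 ± 43.3 CPM (SD, n = 4) to 332 ± 54.6 CPM (n = 3), a log2 fold change of 0.97 ± 0.26 (edgeR, adjusted p = 0.0372). In CTL mice Adam17 was 185 ± 55.9 and 348 ± 31.1 CPM (edgeR, adjusted p = 0.0708). Tnfaip6, a secreted hyaluronan-binding protein gene, was lower ipsilaterally in BLZ945 mice (edgeR, adjusted p = 0.0117): it was at 0 in all 3 ipsilateral libraries and between 4.84 and 115 CPM in the contralateral ones, and in CTL mice it was 0 to 3.86 and 8.78 to 109 CPM. The lower endothelial and oligodendrocyte markers of the ipsilateral sdCAM libraries moved with Tnfaip6, and their part was not tested. Nor was it tested for Sele and Nos2, called down in the average at log2 fold changes of -4.89 ± 1.53 and -6.19 ± 1.72. Neither of these genes was called in CTL or BLZ945 mice alone. The log2 fold change of Sele was -0.49 ± 1.70 in CTL and -9.29 ± 2.62 in BLZ945 mice. That of Nos2 was -4.50 ± 2.25 and -7.89 ± 2.59. By list, 3 of 16 genes of the receptor complex (median 0.29; Tnfrsf1a, Tnfrsf1b and Ripk1), 1 of 5 ligand and shedding genes (0.40; Adam17), 1 of 5 Rel subunits (0.39; Rel) and 1 of 20 TNF-induced genes (Tnfaip8) were called up, 3 of 20 TNF-induced genes (Tnfaip6, Sele and Nos2) were called down (median -0.03), and 0 of the 8 kinases (0.25), 6 IκB proteins (0.27) and 10 feedback inhibitors (0.36) were called.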

How the data were processed

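Bulk RNA-seq of 32 libraries (Nextera XT, single reads) was made from 8 mice. The authors counted reads per gene after alignment, and the deposited values are raw counts without normalization, in 1 table for tissue and 1 for sdCAMs. The submitters' processing notes name bcl2fastq 2.20, STAR 2.7.11a, featureCounts 2.0.8 and DESeq2 1.46.0; since the sources name more than one mouse genome build, gene coordinates are given for RefSeq promoter windows alone. Multi-mapping and strand settings of the counting are not given in the sources used here.

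Genes with a summed count under 8 (tissue, 16 libraries) or 7 (sdCAMs, 14 libraries) were removed, leaving 18968 and 18297 of 33280. Each table was fitted with edgeR 4.0.16 (TMM, a mean per treatment and hemisphere, quasi-likelihood test, two-sided, Benjamini-Hochberg adjustment over all tested genes). The count model was also run on counts simulated from its own fitted dispersions. Such a run cannot show whether the model holds for these libraries. CPM are counts per 1000000 of TMM-scaled library size (of total counts in the degraded libraries). Alternatives were DESeq2 1.42.0, its size factors in edgeR, other filters, a log2 fold change threshold of 0.59, the mouse as a replicate block, leaving out each mouse, the column letters of A3 and all 16 sdCAM libraries. Hemispheres come from the same animal; deviations from the group means of both hemispheres correlated over genes at 0.11 to 0.445 in the 8 mice with tissue and at 0.0386 to 0.146 in the 6 mice with both sdCAM libraries. No 2 libraries of a group differed by less than sampling noise.

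The 10 members were all named. Of the other pathway genes, those called in the CTL or BLZ945 response of either compartment were named, at most 5 a list by the largest change. Members, lists and marker genes were chosen with earlier results of these data known, so no list is independent support. Markers Trac and Hbb-bs were not in the tables' rows used here, and 1 marker of the microglial list is not reported here and was left out of its sums.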

Additional observations from a re-analysis of the deposited data

Results flagged for a closer look

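In 60 combinations of gene and group with 4 libraries, 6 had a library whose gap to the next exceeded Dixon's 95% limit. This limit flags about 1 in 20 by chance for normally distributed values only. The Tnf flags below were certain for any count, since the other libraries of the group had 0. In tissue these were Tnf in contralateral A3 (0.0850 CPM, 1 count, the others at 0) and in contralateral C3 (0.314 CPM, 3 counts, the others at 0), Tnfrsf1a in ipsilateral A4 (25.1 CPM, the others 36.8 to 38.2), Nfkbia in contralateral C2 (23.8 CPM, the others 29.6 to 30.5) and Nfkbiz in ipsilateral C3 (10.3 CPM, the others 6.20 to 6.71). In sdCAMs it was Relb in contralateral B1 (59.9 CPM, the others 17.3 to 22.1). In the degraded ipsilateral library of C2, outside the comparisons, Nfkb1 had 8 counts, or 145 CPM, above every contralateral sdCAM library. That library held 55155 counts in all.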

How the results depend on the processing

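The number of the 10 genes called changed with the test. In tissue, CTL mice (1 in the main analysis) gave 2 with DESeq2 and 2 with the mouse as a replicate block, BLZ945 mice (2) gave 4 and 4, and the average (5) gave 7 and 7. With the column letters of A3, 0 were called in all of these comparisons. The log2 fold changes of Tnfrsf1a and Nfkbiz in BLZ945 mice stayed at 1.54 and 1.16 there. Leaving out each mouse gave 0 to 2 in CTL mice, 1 to 4 in BLZ945 mice and 3 to 6 in the average. In sdCAMs, BLZ945 mice (1) gave 2 with DESeq2, 2 with the replicate block, 0 with DESeq2 size factors, 0 with all 16 libraries and 0 to 1 without 1 mouse. The sdCAM average (2) gave 1 with a threshold of 0.59, 0 with all 16 libraries and 1 to 2 without 1 mouse, and 3 with the block. There DESeq2 also called Nfkbia, downwards (log2 fold change -0.77, adjusted p = 0.0181).

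Some uncalled values changed sign. In tissue these were Tnf in the interaction (0.63 with the letters of A3; -2.81 to 1.68 without 1 mouse), Tnf in contralateral BLZ945 against CTL tissue (-0.21 with the letters of A3; -1.56 to 2.89 without 1 mouse) and Nfkbia in BLZ945 mice (-0.040 to 0.14 without 1 mouse). In sdCAMs, the replicate block turned Nfkbiz in CTL mice (-0.18), in BLZ945 mice (0.43) and in the average (0.13), and Tnf (1.00) and Tnfaip3 (0.51) in BLZ945 mice. All 16 libraries turned Nfkbiz in CTL mice (-0.063) and Relb in BLZ945 mice (-0.026). Without 1 mouse, Nfkbiz spanned -0.56 to 0.74 in CTL mice and -0.50 to 0.15 in the average, and in BLZ945 mice Tnf spanned -0.52 to 0.83 and Tnfaip3 -0.34 to 0.26. Filters on low counts changed no count of called genes by over 1.5 times, and no treatment comparison gave a call in any setting. In tissue, the contralateral libraries held 0 to 3 counts of Tnf, and the cause of the changes was not tested.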
